A study of Mus musculus with 31 samples.

Results

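The comparison described here set the green (Cy3) channel of the 3 arrays titled RV Mg 3h, which per the study's figures and methods carried hypoxic-ischemic brain, against the Cy3 channel of the 3 arrays titled RV PBS 3h, which carried control brain. These 6 arrays were chosen by title from the 31 of the series, and the values compared were each array's log2 Cy3 signal relative to its own 75th percentile, called the level below. Whole-genome expression was measured in postnatal day 5 NMRI mouse pups given MgSO4 (600 mg/kg), hypoxia-ischemia (HI), both or neither. HI was a ligature of the right carotid artery under isoflurane followed by hypoxia, time was counted from the end of hypoxia, and MgSO4 was given 1 h before HI. Each channel held RNA pooled from the hemisphere ipsilateral to the ligature, or the same side in controls, of 6 pups (3 males and 3 females), so that the spread below is between pools and not between animals. Control pups had no intervention per the study's methods, whereas their labels name PBS. In the red (Cy5) channel the RV PBS 3h arrays carried HI brain and the RV Mg 3h arrays a second injured pool.

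The sources do not agree on what the Cy3 channel of the RV Mg 3h arrays held. The sample labels name brain of MgSO4-treated mice without mention of injury, the series design and the methods name HI without MgSO4, and the study's figures name HI after MgSO4. The groups are therefore called by array title, and no value below separates HI from HI after MgSO4. The labels also give a subcutaneous and the methods an intraperitoneal route for MgSO4, and the treatment label of the Cy5 samples on the RV PBS arrays names MgSO4, against their titles. From the animal numbers given in the study, the HI pools on the RV Mg and RV PBS arrays may be the same RNA, which was not tested.

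Immediate early genes encode transcription factors of the FOS, JUN, EGR, KLF and NR4A families and small regulators that cells transcribe without new protein synthesis. Calcium entry, growth factors, cytokines and stress kinases act on them through the factors CREB, SRF and TCF, and their products in turn bind AP-1 and related sites of later genes. In the immature brain, ischemia and the excess glutamate release that follows it are classical stimuli of this response, and activated microglia and endothelium add chemokines. Feedback inhibitors such as the dual-specificity phosphatases and SOCS proteins are induced by the same signals and end them.

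In Cy3, between 62.2% and 65.9% of the spots were well above background on the 6 arrays and no spot was saturated, and precision is limited by how few arrays there are. The arrays lay on 2 slides with both groups on each, the first with replicates 1 and 2 of each group and the second with replicate 3. Across the probes tested, array pairs correlated with r of 0.981 to 0.992 within RV Mg 3h, 0.990 to 0.994 within RV PBS 3h and 0.979 to 0.991 between groups. For the 38 genes called higher below, which were chosen as high in this Cy3 channel, other channels are given as a description. On the 4 arrays of uninjured MgSO4-treated against control mice at 3 h their mean log2 ratios lay between -0.37 and 0.22 (median 0.00), where 22 of the 38 were well above background in both channels of every array. On the RV Mg 3h arrays themselves the Cy5 over Cy3 ratio had a median of -0.04. The Cy3 differences of the 38 genes had a median of 2.05. These values do not tell HI from HI after MgSO4, and which source names the channel correctly was not tested.

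At 3 h, 38 genes rose in the Cy3 channel of the RV Mg 3h arrays and 3 fell, out of 14654 genes tested with 19067 probes. A call required an adjusted p under 0.05 over all probes (limma, Benjamini-Hochberg) and a difference of at least 1.5-fold. These counts were 0.259% and 0.0205% of the genes tested. Ifi207, Junb, Ptgs2, Rgs1 and Zfp36, among the 38, were well above background on no control array. They entered the test through the RV Mg 3h group alone, and their p-values rest on control signals under that limit. Cxcl10, Lcor and Niban1 were well above background on 1 of 3 control arrays and also entered through the RV Mg 3h group alone. Among probes well above background on all 6 arrays, 45 genes rose, with 30 of the 38 among them. For Ptgs2 and Rgs1 the rise over the detection floor defined below is under 1.5-fold. Of the 38 genes, 29 belonged to at least 1 of 16 functional gene lists, 14 of them to the immediate early transcription factors. The 16 lists name 445 genes, against the 14654 tested. They were chosen with earlier results of these data known, so this count is a description only. All 41 called genes had groups that did not overlap, which a call at 3 against 3 arrays favors. The same sign within both slides then follows and is no further support. Without adjustment, 883 genes were higher and 1045 lower at p under 0.05 (6.03% and 7.13% of the genes tested). The groups also did not overlap for 1207 higher and 1940 lower genes (8.24% and 13.2%), and the median difference over all genes was -0.05 on the log2 scale. The genes called higher were few, with differences from 0.87 to 5.37. Genes not called also reached into that range, such as Cxcl1 at 2.39, and the lowest difference of any gene was -3.12. Over all genes, 41.5% of the differences were above 0. In pooled tissue, fewer cells of a type and less RNA per cell cannot be told apart.

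**Figure D1:**
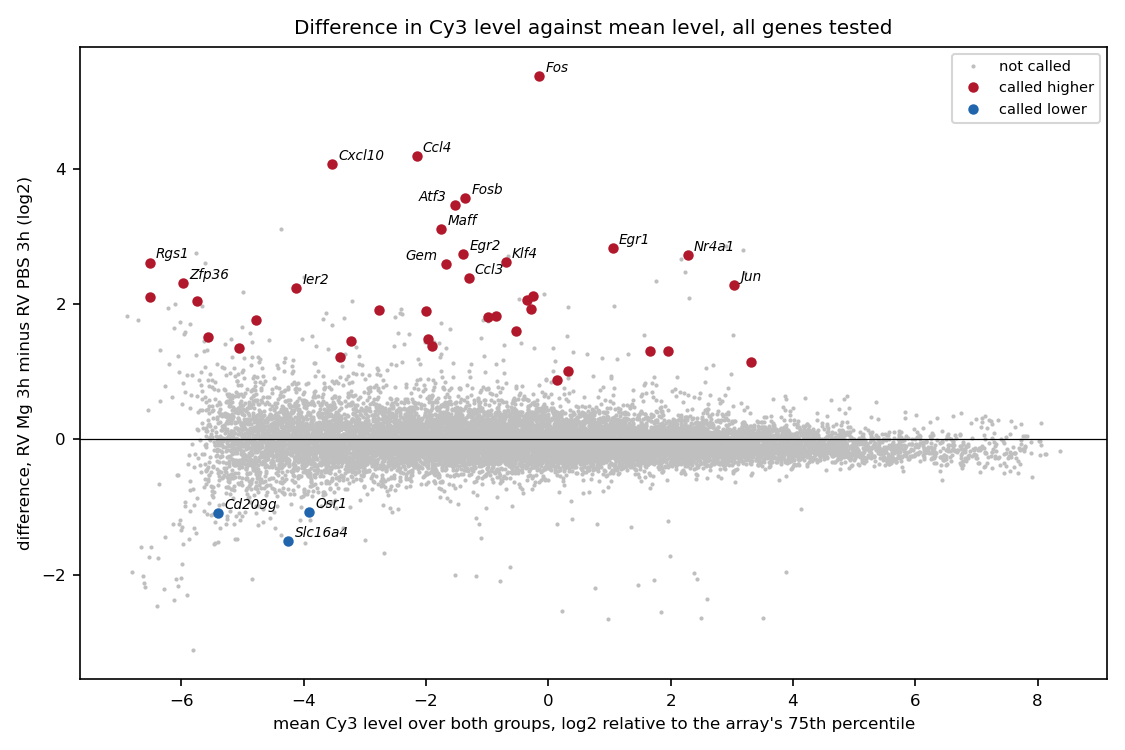
Difference in Cy3 level (RV Mg 3h minus RV PBS 3h, log2) against the mean level over both groups (log2 relative to the array's 75th percentile) for the 14654 genes tested, each by its brightest probe. Filled points are the 38 genes called higher and the 3 called lower, with names for the lower genes and the largest differences, and Fos lies highest at 5.37.

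The count depended on how replicates were treated. Same-numbered arrays of the groups deviated together, and with the replicate number as a block 100 genes rose and 16 fell (0.682% and 0.109%), among them all 41 above. Within the slide of replicates 1 and 2 alone 19 rose and 3 fell, of which 18 and none were among the 41. Leaving out 1 array gave 14 to 56 higher and 2 to 10 lower genes, with 14 to 33 of the 38 and 0 to 3 of the 3 among them. These were 19, 14 and 22 higher without RV PBS 3h replicates 1, 2 and 3 and 21 without RV Mg 3h replicate 1, while 10 genes fell without RV Mg 3h replicate 3. Fos, Fosb, Maff, Egr2, Nr4a1, Klf4, Jun, Csrnp1 and Adm were called under each of 23 alternative settings, while the test of the methods after adjustment called no gene (2015 at unadjusted p under 0.05).

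The immediate early transcription factors had the highest median of the 16 lists. Of 27 members tested 14 rose and none fell, 23 were higher at unadjusted p under 0.05, and the list's median difference was 1.63 against -0.05 for all genes. Fos, the FOS subunit of AP-1, was measured at 2.67, 2.67 and 2.29 on the RV Mg 3h arrays and at -2.91, -2.65 and -2.94 on the RV PBS 3h arrays. Every RV Mg 3h array stood far above every control array, with a difference of 5.37 ± 0.16 (SE, n = 3 against 3, adjusted p = 5.77e-05), or 41.5-fold. Fosb, its closest relative, lay at 0.77, 0.33 and 0.15 against -3.48, -2.93 and -3.02, a difference of 3.56 ± 0.21 (adjusted p = 0.00202). Atf3, a stress-induced repressor of the ATF/CREB family, gave 0.50, -0.33 and 0.45 against -2.90, -3.44 and -3.44. The second RV Mg 3h array was the lowest of its group, and the difference was 3.47 ± 0.26 (adjusted p = 0.00514). Maff, a small MAF protein that pairs with NRF and FOS-like partners, gave -0.07, -0.49 and -0.04 against -3.36, -3.21 and -3.35, with 3.11 ± 0.15 (adjusted p = 0.00133).

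Zinc-finger and nuclear receptor factors followed. Egr1, the prototype of the EGR family, was at 2.96, 2.68 and 1.76 on the RV Mg 3h and -0.41, -0.09 and -0.56 on the RV PBS 3h arrays. The third RV Mg 3h array was the lowest of its group, and the difference was 2.82 ± 0.31 (adjusted p = 0.0199). Egr2 lay at 0.49, -0.24 and -0.33 against -2.85, -2.60 and -2.85, a difference of 2.74 ± 0.23 (adjusted p = 0.00728), here with the first array highest. Nr4a1, an orphan nuclear receptor induced by depolarisation, gave 3.79, 3.83 and 3.30 against 0.95, 1.02 and 0.78, with 2.73 ± 0.17 (adjusted p = 0.00247). Klf4, a Krüppel-like factor, gave 0.83, 0.66 and 0.35 against -2.05, -1.77 and -2.19, with 2.62 ± 0.18 (adjusted p = 0.00301). The arrays of each group kept apart for all of these genes.

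Jun, the main partner of FOS in AP-1, rose by 2.28 ± 0.19 (adjusted p = 0.00678) and Csrnp1, a nuclear protein induced by AXIN and by stress, by 1.83 ± 0.14 (adjusted p = 0.00584). Ier2, a growth-factor-induced early gene, rose by 2.23 ± 0.13. Junb, a JUN family member, was well above background on 2 of 3 RV Mg 3h arrays and on no control array. Its means were -4.72 ± 0.35 and -6.77 ± 0.45 (SD, n = 3 each), and the mean of the bright group lay 1.86-fold over a floor. On each dim array that floor is the lowest signal of any probe well above background there, or the probe's own signal where higher. Signals not well above background can lie above this floor, so folds over it are no strict lower bounds. Ier3 rose by 1.39 ± 0.16 and Cebpd, a C/EBP factor of the acute phase, by 1.30 ± 0.17. Of the 13 members not called, Npas4, Btg2, Arc, Cebpb, Klf2 and Egr4 had differences of 2.15, 1.63, 1.43, 1.35, 1.26 and 1.01 and were called higher with the replicate block, which took the list to 20 of 27. They are named after their values were seen. Nr4a2 (0.53), Myc (0.39) and Fosl1 (0.56) were positive without passing at unadjusted p, and Ier5 at -0.36 was the only member below 0. With 1 array left out, 10 to 17 members were called.

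**Figure D2:**
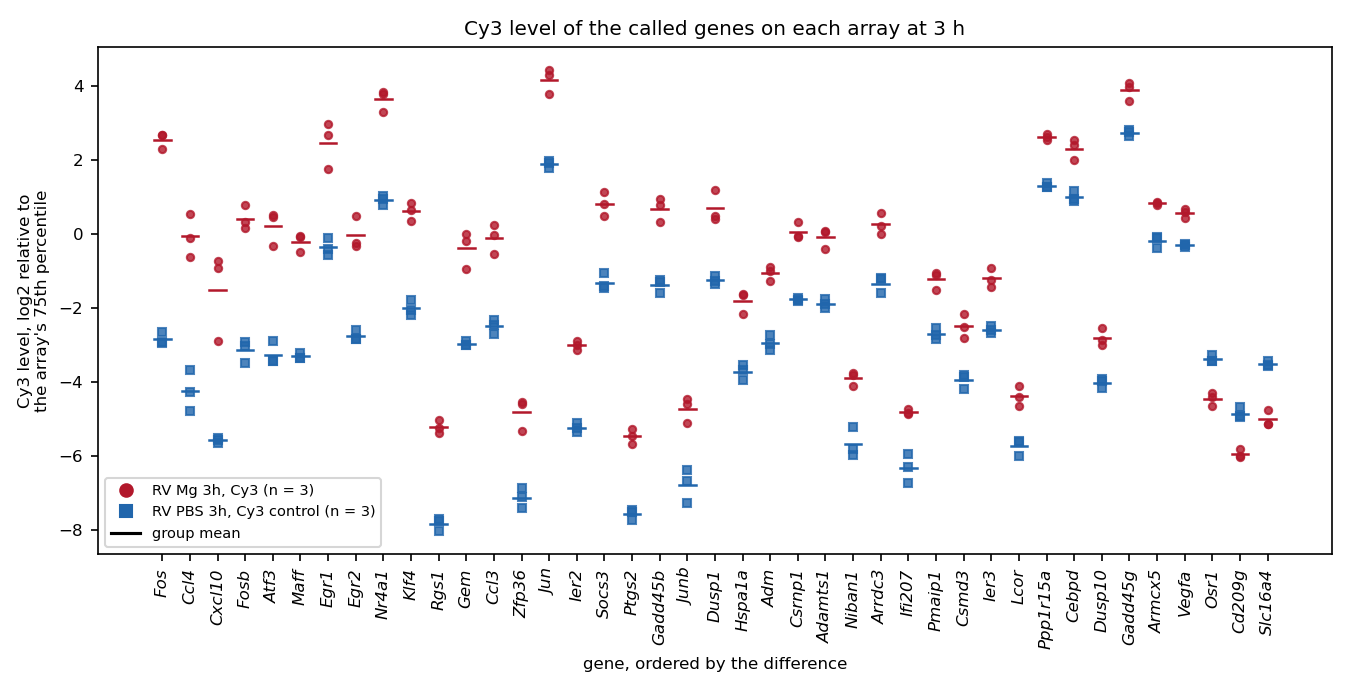
Cy3 level (log2 relative to the array's 75th percentile) of the 41 called genes on each of the 3 RV Mg 3h arrays (circles) and the 3 RV PBS 3h arrays (squares), with the group means as lines and the genes in order of their difference, from 5.37 for Fos to -1.499 for Slc16a4. For every gene shown the arrays of the groups do not overlap.

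The start regions of the 4 members of this list with the largest differences are shown because these genes moved together, with windows of 250 bases before to 50 bases after the transcription start taken from RefSeq (GRCm38.p6), 5′ to 3′ on the gene's strand. Capitals mark the core TGACG of the cyclic AMP response element (CRE) on either strand, at which CREB and ATF proteins bind and which the full CRE TGACGTCA contains. Serum response elements would also be in capitals and none of these windows held one. Bases outside the windows were not searched, so elements further from a start would be missed. The regions were chr12:85473640-85473939, plus strand for Fos, chr7:19309996-19310295, minus strand for Fosb, chr1:191183284-191183583, minus strand for Atf3 and chr15:79347270-79347569, plus strand for Maff, each in the build above. Maff has 3 listed starts, of which the second is printed since it alone held a full CRE.
Fos: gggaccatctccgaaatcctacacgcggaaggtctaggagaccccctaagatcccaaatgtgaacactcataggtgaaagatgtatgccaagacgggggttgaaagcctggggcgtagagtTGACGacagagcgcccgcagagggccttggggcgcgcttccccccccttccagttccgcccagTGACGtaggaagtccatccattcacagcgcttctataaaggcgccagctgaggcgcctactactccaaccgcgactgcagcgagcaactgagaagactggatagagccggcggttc
Fosb: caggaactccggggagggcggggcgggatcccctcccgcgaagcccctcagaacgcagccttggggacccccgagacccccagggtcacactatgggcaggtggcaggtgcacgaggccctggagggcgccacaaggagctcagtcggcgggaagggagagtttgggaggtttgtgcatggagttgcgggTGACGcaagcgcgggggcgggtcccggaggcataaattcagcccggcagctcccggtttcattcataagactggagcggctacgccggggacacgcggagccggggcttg
Atf3: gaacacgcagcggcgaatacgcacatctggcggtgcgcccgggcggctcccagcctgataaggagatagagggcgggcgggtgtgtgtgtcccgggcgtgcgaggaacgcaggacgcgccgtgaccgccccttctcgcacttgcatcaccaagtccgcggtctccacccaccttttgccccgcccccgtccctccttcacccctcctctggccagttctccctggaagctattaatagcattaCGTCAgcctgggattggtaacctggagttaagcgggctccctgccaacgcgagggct
Maff: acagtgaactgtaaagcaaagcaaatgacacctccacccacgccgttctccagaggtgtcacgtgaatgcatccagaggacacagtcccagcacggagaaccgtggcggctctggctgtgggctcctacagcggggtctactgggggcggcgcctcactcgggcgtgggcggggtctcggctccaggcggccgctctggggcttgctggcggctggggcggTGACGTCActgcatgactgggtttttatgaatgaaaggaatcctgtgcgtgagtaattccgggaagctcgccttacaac

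The TGACG core began 129 and 66 bases before the start in Fos, 60 bases before it in Fosb and 7 bases before it in Atf3, where it lay on the opposite strand. The Maff window printed held the palindromic CRE from 29 bases before the start, the third Maff start a core 122 bases before it, and the first none. Of the 38 genes called higher, 30 had an entry, with 42 windows, of which 22 (52.4%) held the core, against 6837 of all 32851 promoter windows (20.8%). For the 11 called immediate early genes with an entry these were 15 of 20 windows, and several windows of a gene can overlap. The full CRE was in 3 of the 42 windows (7.14%, all windows 1.79%) and the serum response element, also called CArG box, in 5 (11.9%, all windows 1.63%), 4 of these in starts of Egr2. AP-1 (TGANTCA) was in 2 windows (4.76%, all windows 7.81%), the heat shock element (GAANNTTC) in 2 (4.76%, all windows 7.86%), the hypoxia response element (ACGTG) in 13 (31%, all windows 19.6%) and the NF-kB motif, with guanines and cytosines fixed at its ends, in 29 (69%, all windows 50.8%). Both strands were searched, the CRE matches are counted again among the cores, and the NF-kB motif can match itself on the opposite strand. These shares describe letters in a window and are no measure of binding.

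Some genes of a list of feedback inhibitors, which also holds the GADD45 genes, were called as well. Whether the GADD45 proteins inhibit or activate these pathways here was not tested. Of 20 tested members of the list of MAP kinase phosphatases and other feedback inhibitors, 6 rose and none fell, 15 were higher at unadjusted p under 0.05 and the median difference was 0.74. Socs3, the inhibitor of JAK-STAT3 signalling, was at 1.14, 0.50 and 0.80 on the RV Mg 3h arrays and at -1.06, -1.47 and -1.41 on the RV PBS 3h arrays, a difference of 2.12 ± 0.20 (adjusted p = 0.0102). Gadd45b, which binds the stress kinase MEKK4, gave 0.94, 0.32 and 0.78 against -1.30, -1.60 and -1.24, with 2.06 ± 0.19 (adjusted p = 0.0102). The second RV Mg 3h array was the lowest of its group for both genes. Dusp1, the phosphatase that inactivates p38 and JNK in the nucleus, gave 0.47, 1.19 and 0.41 against -1.34, -1.12 and -1.27, here with the second array highest, and 1.93 ± 0.22 (adjusted p = 0.0242). Dusp10, a p38 and JNK phosphatase, rose by 1.22 ± 0.16 and Gadd45g by 1.14 ± 0.16. Zfp36, which binds AU-rich messages and promotes their decay, had means of -4.82 ± 0.44 and -7.13 ± 0.27. It was well above background on 2 of 3 RV Mg 3h arrays and on no control array, and rose 1.74-fold over the floor (adjusted p of the difference = 0.0175). The ERK phosphatase Dusp6 (0.69) and Dusp4 (1.44), the NF-kB inhibitors Nfkbia (0.62) and Tnfaip3 (0.52) and Gadd45a (0.89) were not called, and Dusp4 passed with the replicate block.

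Among chemokines, 3 of 14 tested members rose, 8 were higher at unadjusted p under 0.05, none was lower and the median difference was 0.86. Ccl4, a chemokine that microglia and macrophages release, was at -0.11, -0.63 and 0.55 on the RV Mg 3h arrays and -4.28, -4.77 and -3.69 on the RV PBS 3h arrays. The third array of either group was its highest, and the difference was 4.18 ± 0.36 (adjusted p = 0.00765), or 18.2-fold. Ccl3, its close relative, gave 0.25, -0.54 and -0.04 against -2.31, -2.71 and -2.47, with 2.39 ± 0.22 (adjusted p = 0.0102). Cxcl10, a CXCR3 ligand induced by interferon and NF-kB, gave -0.72, -2.88 and -0.91 against -5.65, -5.56 and -5.51. Its second RV Mg 3h array lay well below the other pair, so that the difference of 4.07 ± 0.53 had the largest error of the genes called (adjusted p = 0.0419), and its probe was well above background on 1 control array of 3. The neutrophil attractant Cxcl1 (2.39) and the monocyte attractant Ccl2 (1.93) were not called here and passed with the replicate block. Ccl7 and Cxcl5 were at 1.33 and 1.09, and Cx3cl1 and Cxcl12, which resting neurons and vessels make, at 0.08 and -0.05.

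The list of cytokines and their receptors gave a single call among 20 tested, and this was an enzyme of the list, not a cytokine or receptor. At unadjusted p under 0.05, 10 members were higher and none lower, and the median was 0.53. Ptgs2, the inducible cyclooxygenase, had means of -5.47 ± 0.20 and -7.57 ± 0.13 and no control array well above background. It rose 1.11-fold over the floor (adjusted p of the difference = 0.00333). Il1a, Il1b and Il6 (1.70) were not called and their arrays overlapped between the groups, with Il1a and Il1b not well above background on any control array. The TWEAK receptor Tnfrsf12a (2.07) was separate and passed with the replicate block. Of 16 interferon-induced genes none was called, 2 were higher and 2 lower at unadjusted p under 0.05, and the median was -0.11. Irf1, an early target of interferon gamma and NF-kB, differed by 0.75 ± 0.27 (adjusted p = 0.311) and Usp18, an ISG15 protease, by -0.73 ± 0.53 (adjusted p = 0.592). Isg15 (-0.05) and Ifit3 (0.11) lay near 0.

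Calls in the stress lists were single members. The heat shock list had 1 call in 18, Hspa1a, the inducible HSP70, at -1.64, -1.62 and -2.16 against -3.55, -3.66 and -3.95, with 1.91 ± 0.19 (adjusted p = 0.0129). All its RV Mg 3h arrays were above all controls, while the list's median was -0.01 and the constitutive Hspa8 and Hsp90ab1 lay at -0.13 and -0.16. In the integrated stress and unfolded protein response list Ppp1r15a (GADD34), the subunit that directs phosphatase 1 to eIF2alpha, was the 1 member of 20 called, at 2.61, 2.69 and 2.55 against 1.38, 1.28 and 1.27, with 1.31 ± 0.11 (adjusted p = 0.00765). Atf4 (0.32), Ddit3 (0.59) and the ER chaperone Hspa5 (0.14) were not called, and the list's median was 0.27.

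Of 29 hypoxia-inducible factor targets 2 rose, 9 were higher and 2 lower at unadjusted p under 0.05, and the median was 0.06. Adm, the vasodilator adrenomedullin, was at -1.26, -0.88 and -1.01 on the RV Mg 3h arrays and -2.97, -3.14 and -2.72 on the RV PBS 3h arrays, a difference of 1.89 ± 0.16 (adjusted p = 0.00765). Vegfa, the endothelial growth factor, gave 0.67, 0.44 and 0.60 against -0.34, -0.29 and -0.27, and its difference of 0.87 ± 0.12 (1.83-fold, adjusted p = 0.0466) was the smallest of the genes called, each taken by its brightest probe. A second Vegfa probe, also called, differed by 1.39 ± 0.13 (adjusted p = 0.0109). The glucose transporter Slc2a1 (0.92) and hexokinase Hk2 (1.38) were not called. Genes of glycolysis lay on both sides of 0, with Pfkfb3 at 0.65, Pfkp at 0.32, Ldha at -0.07, Pgk1 at -0.16 and Aldoa at -0.35. Pmaip1 (NOXA), a BH3-only protein, was the single call among 20 p53 targets and apoptosis genes, with means of -1.22 ± 0.24 and -2.70 ± 0.14 (SD, n = 3 each), no overlap and a difference of 1.48 ± 0.16 (adjusted p = 0.0199). The median of that list was 0.08, with Cdkn1a at -0.11 and Bax at -0.10. Bcl2l11 (BIM), not well above background on any control array and 1.25-fold over the floor, passed with the replicate block alone.

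Glucocorticoid-responsive genes had a median of 0.58 over 20 members, and 13 were higher and none lower at unadjusted p under 0.05. Dusp1, described above, was the only call. The clock gene Per1 (0.73), the kinase Pdk4 (0.78), Tsc22d3 (GILZ, 0.52) and Sgk1 (0.48) were positive and not called, and Fkbp5, a classical target, was at 0.17. Among 20 reactive astrocyte genes only Cxcl10 was called, the median was 0.27, and Gfap, the intermediate filament of astrocytes, was at -0.22. With the replicate block the lipocalin Lcn2 (1.03) was also called higher and Sphk1, a sphingosine kinase (-1.25), lower. Growth factors and neurotrophic signalling held no call in 18 tested, with a median of 0.27. Plaur, the urokinase receptor, differed by 1.82 ± 0.25 (adjusted p = 0.051) and passed with the block. Areg, an EGF receptor ligand not well above background on any control array, lay 1.38-fold over the floor (adjusted p of the difference = 0.0874), and Bdnf was at 0.50.

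**Figure D3:**
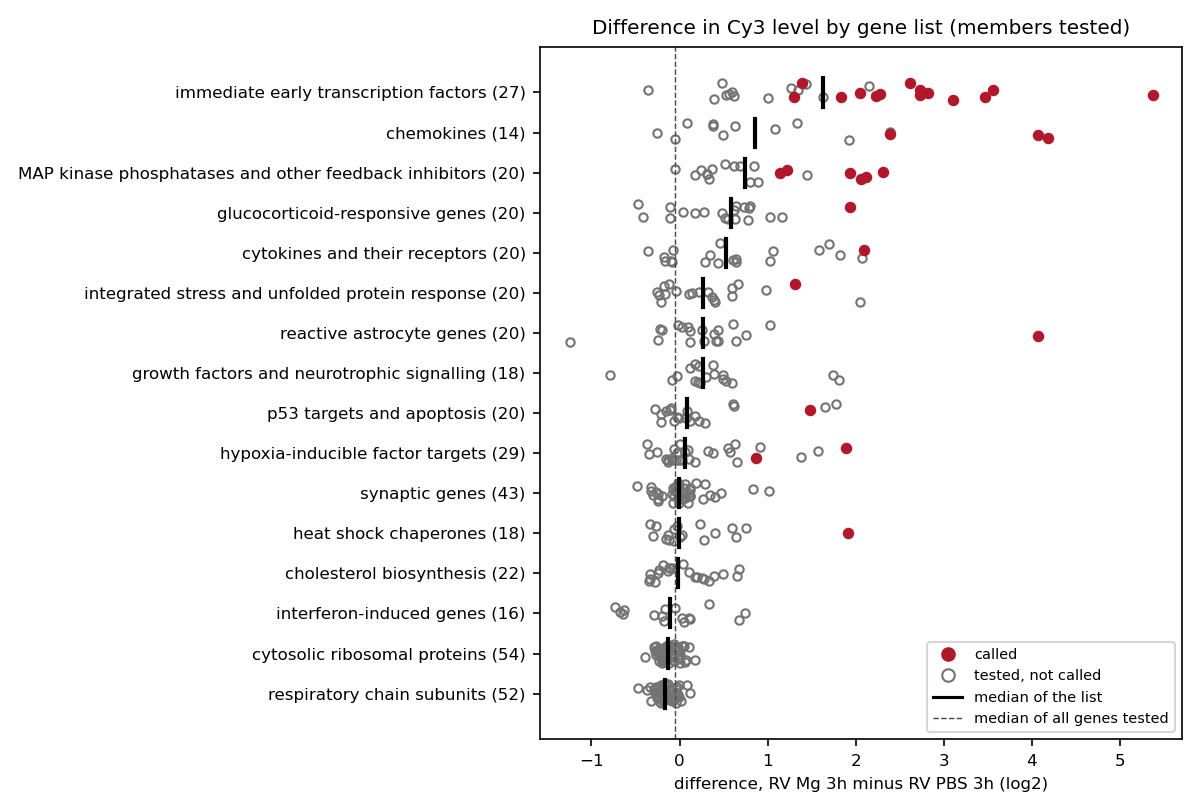
Difference in Cy3 level (RV Mg 3h minus RV PBS 3h, log2) of every tested member of the 16 functional gene lists, with called members filled, each list's median as a bar, the number tested in brackets and the median of all genes (-0.05) as a dashed line. Medians run from 1.63 for the immediate early transcription factors to -0.17 for respiratory chain subunits, and calls lie in 10 of the 16 lists.

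Lists of basal functions showed no call. Of 54 cytosolic ribosomal proteins 10 were above 0 (18.5%) and of 52 respiratory chain subunits 3 (5.77%), against 41.5% of all genes tested. Their medians were -0.14 and -0.17. The members furthest from 0 were Rpl14 (-0.39 ± 0.12, adjusted p = 0.245) and Atp5g1, a subunit of ATP synthase (-0.47 ± 0.15, adjusted p = 0.263). Synaptic genes had a median of 0.00 over 43 members, with the NMDA receptor subunits Grin2b (1.02 ± 0.25, adjusted p = 0.167) and Grin2a (0.83 ± 0.26, adjusted p = 0.256) the highest. Cholesterol biosynthesis had a median of -0.02 over 22 members, with the sterol sensor Insig1 (0.67 ± 0.17, adjusted p = 0.174) the highest.

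The other 9 genes called higher belonged to no list. Gem, a small GTPase that inhibits calcium channels, was at 0.01, -0.95 and -0.19 against -3.01, -3.01 and -2.90, with 2.59 ± 0.24 (adjusted p = 0.0102) and its second RV Mg 3h array lowest. Rgs1, which speeds the GTPase of G-alpha proteins in leukocytes and microglia, had means of -5.21 ± 0.18 and -7.82 ± 0.17 and no control array well above background. It rose 1.32-fold over the floor (adjusted p of the difference = 0.00182). Adamts1, a secreted metalloprotease, rose by 1.81 ± 0.17 and Arrdc3, an alpha-arrestin, by 1.60 ± 0.18. Niban1, Csmd3, Lcor and Armcx5 rose by 1.77 ± 0.22, 1.45 ± 0.20, 1.35 ± 0.18 and 1.01 ± 0.13. Of these, Niban1 and Lcor were well above background on 1 of 3 control arrays. Ifi207, an interferon-inducible PYHIN gene with close paralogs that may bind the same probe, rose 1.75-fold over the floor, with a control group below background. All of these but Gem and Rgs1 were named after their values were seen, to complete the calls.

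Only 3 genes fell. Slc16a4, a monocarboxylate transporter family member, was at -4.74, -5.14 and -5.12 on the RV Mg 3h arrays and -3.53, -3.56 and -3.42 on the RV PBS 3h arrays, a difference of -1.499 ± 0.15 (adjusted p = 0.0114), and was well above background on 1 of 3 RV Mg 3h arrays. Osr1, a zinc-finger factor of mesenchyme, gave -4.66, -4.40 and -4.31 against -3.43, -3.27 and -3.43, with -1.08 ± 0.14 (adjusted p = 0.0408). Cd209g, a C-type lectin, had means of -5.94 ± 0.12 and -4.85 ± 0.15 and was not well above background on any RV Mg 3h array. Its control mean lay 1.65-fold over the floor of those arrays (adjusted p of the difference = 0.0347). None of these 3 was among the genes called lower when the raw median spot signals were corrected by normexp, in a single fit of all Cy3 samples, within the slide of replicates 1 and 2, or without any 1 of the RV PBS 3h arrays.

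No cell type marker was called among 91 tested in 10 lists. Medians of the neuron, astrocyte and microglia lists were 0.04, 0.04 and -0.08. Summed Cy3 levels of the 12 neuron markers ranged from 298 to 356 on the RV Mg 3h arrays and from 348 to 392 on the RV PBS 3h arrays, relative to an array's 75th percentile, so that these overlapped. Microglia sums were higher, 73.3 to 86.7 against 66.1 to 72.5 without overlap, although 10 of 13 markers were below 0. Without Siglech (0.33 ± 0.13) the sums overlapped, at 31.0 to 37.4 against 33.9 to 37.0, and the homeostatic receptors P2ry12 (-0.57 ± 0.21, adjusted p = 0.326) and Cx3cr1 (-0.50 ± 0.15, adjusted p = 0.239) lay below 0. In the oligodendrocyte lineage 5 of 11 markers were above 0 and the other 6 below it without overlap, where 13.2% of all genes were lower without overlap. The sums were 15.0 to 19.1 against 19.8 to 20.4. Without Gpr17 they overlapped, at 12.0 to 14.5 against 14.1 to 14.8. Among progenitor markers Gpr17 and Olig1 differed by -0.51 ± 0.18 and -0.49 ± 0.12, Cspg4 by 0.33 ± 0.19 and Pdgfra by 0.08 ± 0.24. Astrocyte sums were lower without overlap, 93.0 to 112 against 114 to 117, although 6 of 10 markers were above 0. Sox9 was at 0.43 ± 0.24, Slc4a4 at 0.41 ± 0.20 and Aldoc at -0.25, and without Aldoc the sums overlapped, at 26.3 to 31.9 against 24.8 to 29.5.

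The choroid plexus and ependyma sums, at 56.7 to 62.5 against 69.8 to 74.9, did not overlap, and 8 of 9 markers were below 0. Kcne2, a potassium channel subunit of the plexus, differed by -0.98 ± 0.17 (adjusted p = 0.0764) and was the only marker called lower with the replicate block, and Sostdc1 by -0.58 ± 0.13. Endothelial sums overlapped, with Slco1a4 at -0.99 ± 0.51, low on 1 RV Mg 3h array alone, and Ly6c1 at -0.40 ± 0.16. Pericyte and red blood cell sums overlapped too, with Kcnj8 and Lum at -0.47 and -0.36 and Hba-a2 and Hbb-bs at -0.18 and -0.13. The neutrophil and monocyte sums were 2.07 to 4.16 on the RV Mg 3h arrays against 1.53 to 1.78. Without S100a9 these sums overlapped, at 0.933 to 1.64 against 0.872 to 0.994. In that list Ccr2, Ltf, Mmp8 and Ngp were never well above background. Retnlg, not well above background on any control array, lay 1.42-fold over the floor (adjusted p of the difference = 0.113). S100a8 was at 1.35 ± 0.31 (adjusted p = 0.148) and Mpo at -0.82. The part of these cells in the chemokine and cytokine values was not tested. Each pool held both sexes, and Xist and Ddx3y differed by 0.46 ± 0.28 and 0.44 ± 0.20.

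**Figure D4:**
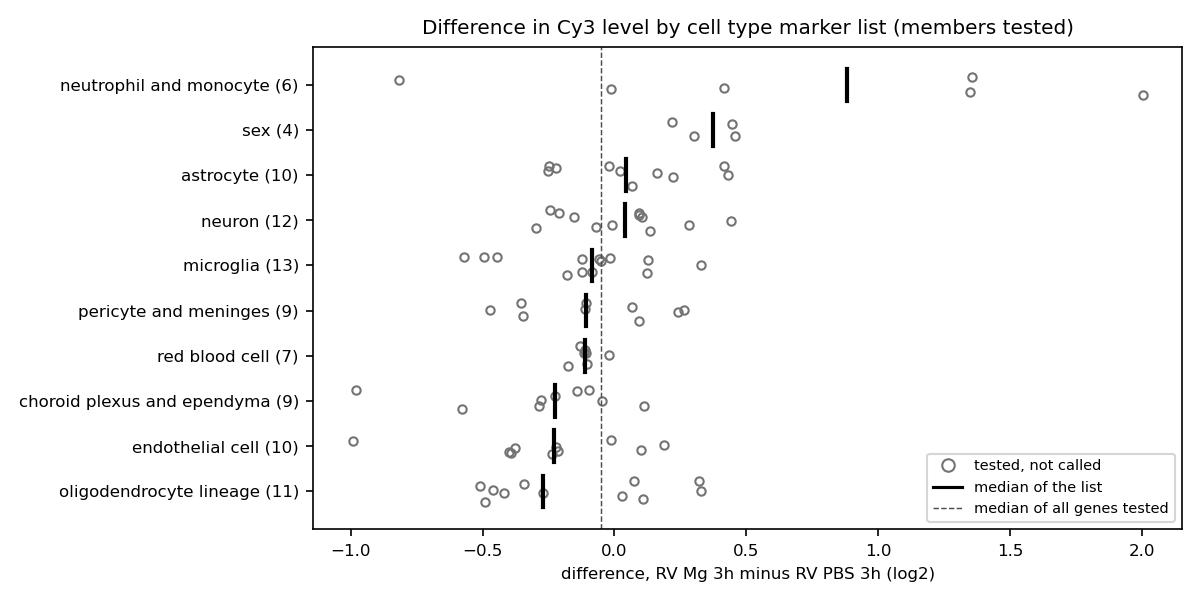
Difference in Cy3 level (RV Mg 3h minus RV PBS 3h, log2) of every tested marker in 10 marker lists, with each list's median as a bar, the number tested in brackets and the median of all genes as a dashed line. No marker was called, and medians lie between -0.27 for the oligodendrocyte lineage and 0.88 for neutrophils and monocytes.

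At 12 h the same comparison, of 3 RV Mg 12h with 3 RV PBS 12h arrays, gave no call in 14536 genes (0%) by limma, with 1927 genes at unadjusted p under 0.05. Of the 38 genes that rose at 3 h, 33 were tested at 12 h and 29 of them had a difference above 0, with a median of 0.42 against 2.05 at 3 h. The share of all genes above 0 at 12 h is not given. Fos was at -2.20, -0.89 and -3.42 on the RV Mg 12h arrays and -4.30, -4.16 and -4.18 on the RV PBS 12h arrays, and its difference of 2.04 ± 0.57 spread widely over the RV Mg arrays. Nr4a1 had overlapping groups at 12 h, at 0.57, 1.14 and 0.38 against 0.83, 0.67 and 0.70. Fosb, Egr1, Egr2 and Dusp1 were at 0.27 ± 0.34, 0.38 ± 0.31, 0.19 ± 0.27 and 0.10 ± 0.18. Among the chemokines, Ccl4 was at 4.06 ± 0.36, Ccl3 at 2.55 ± 0.35 and Cxcl10 at 5.31 ± 0.82 (limma adjusted p = 0.12, 0.272 and 0.29). The Cxcl10 probe was well above background on 1 of 3 RV PBS 12h arrays, so its difference rests on dim controls. Adm (0.03 ± 0.27) and Vegfa (-0.16 ± 0.15), which rose at 3 h, lay near 0.

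The change between times was itself tested, in a fit of all 12 arrays. Of 14890 genes only Nr4a1 passed (0.00672%), with 1080 at unadjusted p under 0.05. Its difference changed by -2.76 ± 0.29 on the log2 scale (12 h minus 3 h, lower at 12 h, limma adjusted p = 0.0245). For Fos, Fosb and Egr2 the changes of -3.33 ± 0.66, -3.30 ± 0.44 and -2.54 ± 0.38 did not (adjusted p = 0.175, 0.0695 and 0.0856). Ccl4 was at -0.13 ± 0.57 (adjusted p = 0.963). With the replicate number within each time as a block no gene passed.

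The same genes can be read in 3 other ways on these slides. On the RV PBS 3h arrays the HI sample in Cy5 was set against the same control samples in Cy3, so that both readouts share their controls and are given side by side only. HI over control was above 0 on each of the 3 arrays for 37 of the 38 genes, with a median of 1.86 against 2.05 in the Cy3 comparison. The genes were chosen as high against these same controls, which favors ratios above 0. No share over all genes is given beside this count. Fos was at 5.57, 5.86 and 5.12, Ccl4 at 4.91, 3.99 and 3.20 and Adm at 2.39, 2.42 and 1.74. Ifi207 was the exception, and its probe, like those of Rgs1 and Ptgs2, was not well above background in either channel of any of these arrays. Arrdc3, Lcor and Armcx5 were at 0.93 ± 0.40, 0.65 ± 0.51 and 0.66 ± 0.07 (SD, n = 3). The genes that fell were below 0 there as well, with Osr1 at -0.61 ± 0.53 and Slc16a4, well above background in Cy5 on 1 of 3 arrays, at -1.78, -1.63 and -1.10, while Cd209g was not well above background in Cy5 on any.

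On the RV Mg 3h arrays, whose channels both held injured brain per the study's figures, Cy5 over Cy3 was above 0 on every array for 5 of the 38 genes and below 0 on every array for 8, with means from -0.70 for Rgs1, well above background in Cy5 on 1 of 3 arrays, to 1.49 for Ier2. Fos was at -0.08, 0.69 and -0.06. Ier2, at 1.38, 1.91 and 1.17, and Junb, at 1.08, 1.76 and 1.54, stood apart from the other immediate early genes, and both have dim probes. On the 4 arrays of uninjured MgSO4-treated against control brain, 2 of the 38 genes were above 0 on every array and 1 below. Fos was there at -0.15 ± 0.23 and Ccl4 at -0.10 ± 0.52 (SD, n = 4).

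**Figure D5:**
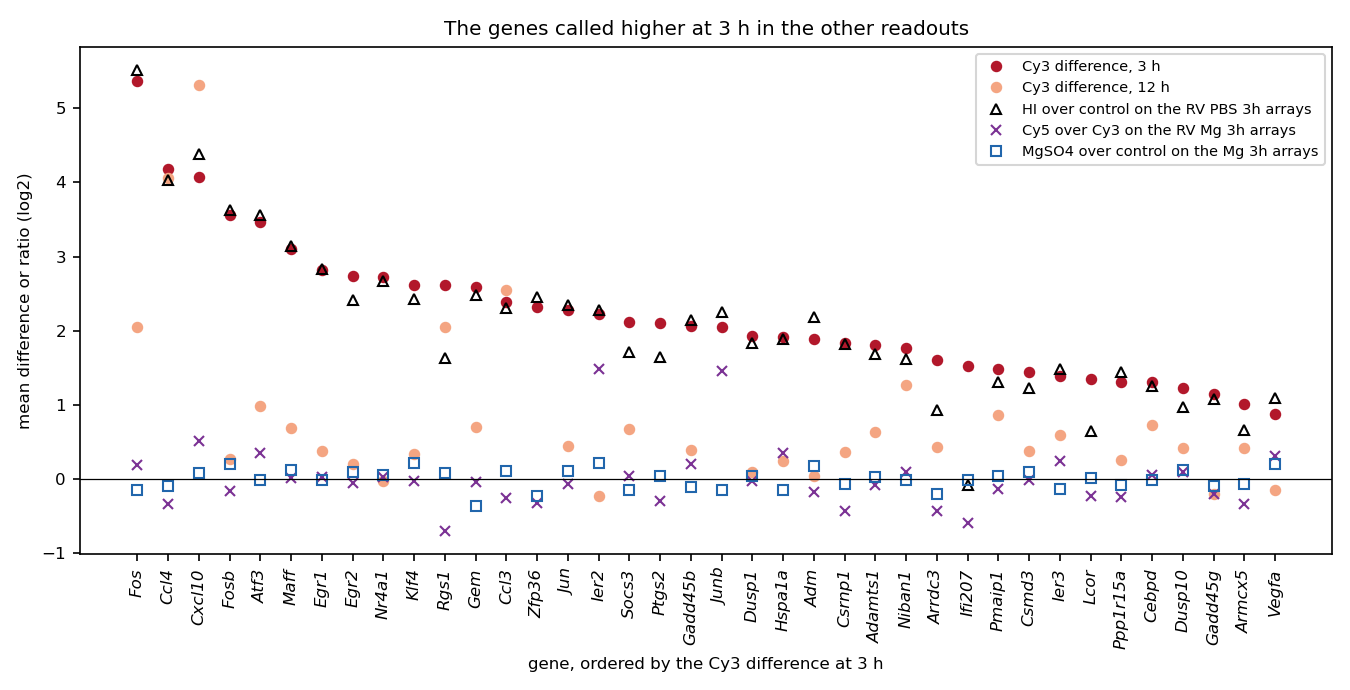
Mean log2 values of the 38 genes called higher at 3 h, in order of their Cy3 difference, as the Cy3 difference at 3 h and at 12 h (filled circles), HI over control on the RV PBS 3h arrays (triangles), Cy5 over Cy3 on the RV Mg 3h arrays (crosses) and MgSO4 over control on the Mg 3h arrays (squares). Medians are 2.05, 0.42, 1.86, -0.04 and 0.00, and the chemokines Ccl4, Ccl3 and Cxcl10 lie at 4.06, 2.55 and 5.31 at 12 h, where no gene was called.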

How the data were processed

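Two-color Agilent whole mouse genome arrays (39429 non-control probes) were scanned and extracted by the authors with Feature Extraction 10.5.1.1. Per the file headers, the deposited processed intensities had local background removed, a spatial trend taken out and the dyes balanced by LOWESS on each array, so that a Cy3 value also depends on the Cy5 sample of its array. The deposited median spot and background intensities are uncorrected and served an alternative. The authors' series table of log ratios was not used here.

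From these, log2 Cy3 processed signal minus the array's 75th percentile was computed. Spots marked by the software as non-uniform or outlying in Cy3 were left out and replicate spots averaged. RefSeq accessions (GRCm38.p6) gave a single symbol for 27427 probes (69.6%), and the 930 symbols with Rik were left out. Probes well above background on at least 2 of 3 arrays of either group were tested with limma 3.58.1 in R 4.3.3 (lmFit, eBayes, Benjamini-Hochberg over all probes), first tested on simulated data. A gene was taken by its brightest probe, and was called at adjusted p under 0.05 and at least 1.5-fold. Of the 41 called genes 2 had more than 1 probe tested, none with opposite signs. Errors of differences are limma's standard errors. P-values measure the spread between pools of 6 pups.

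Replicate numbers come from the array titles. Residuals of same-numbered arrays correlated with r of 0.18, 0.31 and 0.37, each above 0.1, so the numbers were taken to pair the arrays. On their shared slide, RV Mg 3h replicate 1 and RV PBS 3h replicate 2 were at 0.16. There, RV Mg 3h replicate 2 and RV PBS 3h replicate 1 were at -0.05. For replicate 1, pairing by number and a shared slide were therefore not told apart. The fit without the block was kept as the main one, and the blocked values stand beside it where they change a call or a count.

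Named genes were the 12 higher and 8 lower called genes with the largest difference, up to 5 called members of each list or else the 2 members with the largest difference, and for the time comparison the 5 called genes with the largest change. A gene that this rule names is not reported here. The members of the comparison, the lists and the tests were chosen with earlier results of these data known. Lists are described by counts and medians and were not tested.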

Additional observations from a re-analysis of the deposited data

Results flagged for a closer look

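The difference in Cy3 level changed between 3 h and 12 h for 1 gene, Nr4a1, by -2.76 on the log2 scale (12 h minus 3 h, limma over 12 arrays). Among the log2 ratios of MgSO4 over control on the 4 Mg 3h arrays, a single array stood apart for 4 of the 41 called genes. How many would stand apart by chance was not tested. For Rgs1 replicate 2 was at -0.42, against 0.20, 0.29 and 0.25. The Rgs1 probe was not well above background in either channel of any of these arrays, so that this ratio is not a measured level. For Socs3 replicate 1 was at 0.0291, against -0.19, -0.20 and -0.22. For Armcx5 replicate 2 was at 0.11, against -0.12, -0.13 and -0.13, and for Ier2 replicate 2 was at 0.0135, against 0.28, 0.29 and 0.26. Ier2 was well above background on 3 of the 4 arrays, and its value of 0.29 on the other is the one that Rgs1 has there, a floor of the processed signals.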

How the results depend on the processing

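For the 41 called genes the groups did not overlap. Fits of the same values on fewer arrays or with a block therefore had to keep the sign. Under the other alternatives the sign was kept as well, with 1 exception. Junb, dim in the controls, lay at -0.0445 with other controls. There the 4 control samples of the Mg 3h arrays, on other slides, replaced the RV PBS 3h controls. That exchange of controls gave 553 higher and 894 lower genes (38.2% of calls higher, against 92.7%), and adding these controls to the others 48 higher and 7 lower. With the replicate number as a block 100 genes were higher and 16 lower, and with the slide as a block 109 and 24, among them all 41 in both fits. The pairing took no call from the 3 h comparison and ended the single call of the time comparison. Within the slide of replicates 1 and 2 the counts were 19 and 3, with no filter on dim probes 22 and 2, and with trended robust variances 64 and 6. With only probes well above background on all 6 arrays they were 45 and 3, among them 30 of the 38 and 1 of the 3. The methods' t-test gave 291 higher and 133 lower genes unadjusted and 0 and 0 after Benjamini-Hochberg (2015 genes at unadjusted p under 0.05). Leaving out 1 array gave 14 to 56 higher and 2 to 10 lower genes, with none of the 3 lower genes among them without any 1 RV PBS 3h array. Other centring, quantile normalization, normexp, marked spots kept, all Cy3 samples in a single fit and another fold threshold gave 29 to 42 higher genes, but not the same ones throughout: normexp called 27 of the 38 higher genes (24 with quantile normalization) and the single fit 25, and neither called any of the 3 lower ones, and 5 of the 38 were below background in all controls.

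Genes whose difference changed between 3 h and 12 h numbered 1, and 0 with median centring, 8 with normexp, 0 without the filter, 0 with the replicate block, 2 with the slide block, 5 with trended robust variances and 0 to 10 with 1 array left out, with 9 and 10 without RV Mg 12h replicates 2 and 3. The cause of these differences was not tested. The scan day as a block could not be fitted because all RV arrays were scanned on the same day. Signal over background limits the dim probes, for which folds over the floor are given, and these are no strict lower bounds.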
